A study of Mus musculus with 7 samples.

Results

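The genes described here encode 7 families of enzymes that hydrolyse, oxidise or conjugate foreign compounds and many lipids of the body. They were the protein-coding genes of the count table whose symbols start with Ephx, Ces, Fmo, Gst followed by a class letter, Ugt, Sult or Aldh, each with a number. The rule found 116 of the 21897 protein-coding genes and of the 55401 genes in the table. There were 4 Ephx, 19 Ces, 7 Fmo, 22 Gst, 22 Ugt, 21 Sult and 21 Aldh genes. The set was selected on a measured difference, since Ephx1 and Ces1f were known to be higher in BLM+HBO when it was drawn up. Every difference between the groups below is therefore a description, and none of its values is offered as a test of the set.

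Ephx genes encode epoxide hydrolases, which open reactive epoxides with water, and Ces genes encode carboxylesterases, which cleave esters in drugs and lipids. Fmo genes encode flavin monooxygenases and Aldh genes aldehyde dehydrogenases, which oxidise nitrogen and sulphur compounds and aldehydes. Gst, Ugt and Sult enzymes attach glutathione, glucuronic acid and sulphate, which makes a compound easier to excrete. In the lung, many of these enzymes are concentrated in club cells and alveolar type II cells.

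The mice were male C57BL/6, 6 to 8 weeks old and 20 to 25 g, and all of them had received bleomycin, an antibiotic that injures the lung and leads to fibrosis. The right lung lobes of 4 bleomycin mice (BLM) were compared with those of 3 bleomycin mice (BLM+HBO) that breathed hyperbaric oxygen at 2.5 ATA for 90 min a day on 14 days from day 7, and all lungs were taken on day 21. The sample records place the BLM mice in the chamber without pressurised oxygen, whereas the supplementary methods call them untreated, and this was not settled here. As a model, both groups hold young males of 1 strain, and lungs without bleomycin were not compared here.

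Each mouse gave 1 library, with between 18157161 and 26365969 counted reads. Lung markers were abundant, with 7 alveolar type II genes summing to between 8833 and 27660 CPM (counts per 1000000 reads), against 1.71 to 4.90 CPM for 6 hepatocyte genes. BLM+HBO 2 lay nearest to the BLM mice. Of the 3 BLM+HBO mice, it was nearest to the BLM mean for 48.9% of the 17465 genes tested. Among the tested members, this share was 70.8% (46 of 65).

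Of the 116 members, 100 had a read in at least 1 mouse and 65 had enough reads to be tested. The other 51 had at most 60 reads summed over the 7 mice, and 16 of them had none. The 65 tested members comprised all 4 Ephx, 8 Ces, 6 Fmo, 19 Gst, 4 Ugt, 6 Sult and 18 Aldh genes. The filter asked for about 0.542 CPM in 3 mice, and 61 of the 65 reached it in 3 BLM mice. The exceptions were Ces1b, Fmo6, Gstp2 and Sult6b1, and of these Gstp2 alone reached it in all 3 BLM+HBO mice.

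Levels of different genes were compared in TPM, in which the count is divided by the gene length and scaled to 1000000 in each mouse. In the BLM mice, 11 members had a mean of at least 100 TPM, 36 of at least 10 TPM and 60 of at least 1 TPM. Gstm1, a glutathione transferase, was the highest at 377 ± 42.5 TPM (SD, n = 4). It was followed by Ces1d at 342 ± 68.4, Aldh2 at 326 ± 49.8, Aldh1a1 at 305 ± 33.6, Gsto1 at 262 ± 42.8, Fmo2 at 252 ± 72.4 and Ephx1 at 233 ± 20.7 TPM (SD, n = 4). Each of the first 6 of these genes overlapped in range with the next in the order. The first gap lay below Ephx1, whose lowest BLM mouse had 205 TPM, while the highest value of the next gene, Gstm2, was 183 TPM. The families differed in how far 1 gene carried them. Over all mice, Ephx1 made up 96.4% of the summed Ephx level, Ces1d 91.7% of Ces, Sult1a1 78.3% of Sult, Ugt1a7c 71.8% of Ugt and Fmo2 66.5% of Fmo. Gstm1 made up 29.1% of Gst and Aldh1a1 29.6% of Aldh.

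Of the 65 tested members, 46 had the higher mean in BLM+HBO and 19 in BLM, against 8942 and 8523 of all 17465 genes tested. The median log2 fold change of the members was 0.24, against 0.0071 over all genes tested. With the study's limits, an unadjusted P below 0.05 and a fold change above 1.5 in edgeR, 13 members were past both limits, and 12 of them were higher in BLM+HBO. They were Ephx1, Ces1f, Ces1g, Ces1d, Aldh1a7, Gsta2, Aldh1a1, Gsta3, Gstm1, Gstp2, Ces1e and Ces2b. Of these 12, 11 reached the filter in 3 BLM mice, whereas Gstp2 passed it only through the BLM+HBO mice. The only member past both limits that was lower was Aldh1l2. The share of all tested genes past both limits was 6.29%, made up of 3.4% higher and 2.89% lower. Because the rule used this contrast, nothing is read from the members' 20% beside it.

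After Benjamini-Hochberg adjustment over all genes, no member and no gene had an adjusted P below 0.05 in edgeR (0%), and the lowest adjusted P of a member was 0.423. At an unadjusted P below 0.05 with no limit on fold change, edgeR gave 18 members, against 10.7% of all genes. limma also gave no gene at an adjusted P below 0.05. DESeq2 gave 4 members at that limit, Ephx1, Ces1f, Ces1g and Ces1d, against 0.892% of the genes to which it gave an adjusted P. Single mice moved the count of 13. Leaving out BLM+HBO 1 gave 8 members, against 3.7% of all genes. Leaving out BLM+HBO 2 gave 23, of which 17 were higher and 6 lower, against 10.7% of all genes. Ephx1, Ces1d, Ces1f, Ces1g, Aldh1a7 and Gsta2 stayed past both limits in each of the 13 other fits tried. These fits reuse the same mice, and the share of all genes that did so is not given here, so nothing is read from this.

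**Figure D1:**
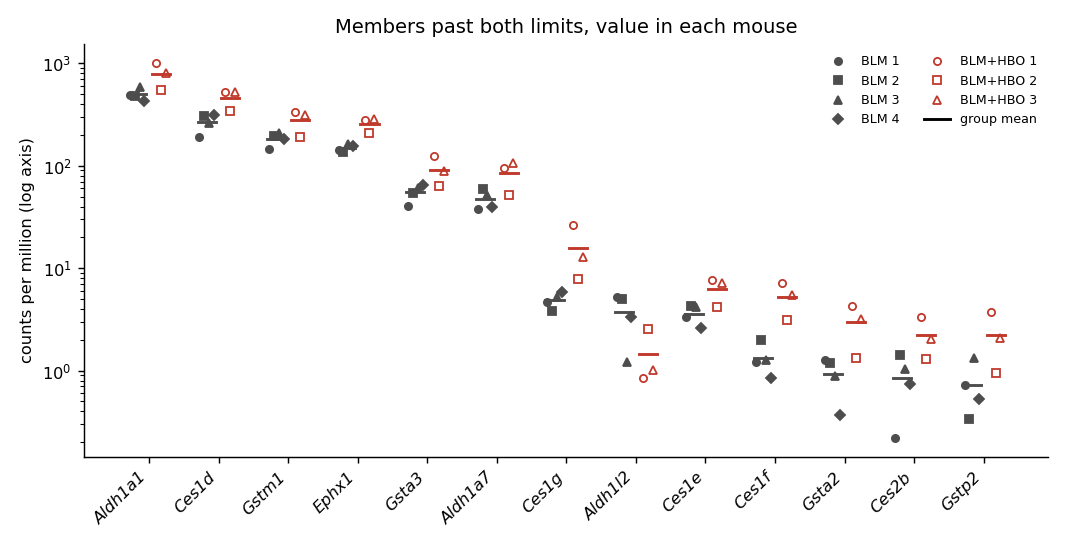
Level of the 13 members past both limits in each mouse, in CPM on a log axis, with BLM mice as filled symbols, BLM+HBO mice as open symbols and bars at the group means. The BLM+HBO 2 mouse (open square) lies nearest to the BLM mice for each of the 12 genes that were higher in BLM+HBO, as it does for 60.4% of all 594 genes past both limits in that direction.

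In 8 members, every BLM+HBO mouse lay above every BLM mouse, and in 0 members every BLM+HBO mouse lay below. The same held for 4.05% of all tested genes in the higher and 4.72% in the lower direction. The 8 members were Ephx1, Ces1d, Ces1f, Ces1g, Gsta2, Fmo4, Fmo5 and Aldh4a1. Fmo4 (log2 fold change 0.50 ± 0.24, SE), Fmo5 (0.50 ± 0.14) and Aldh4a1 (0.44 ± 0.17) stayed under the 1.5-fold limit. Of the exonic bases of Aldh4a1, 32.5% overlap another gene, and the counting left out reads that overlap more than 1 gene.

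Ephx1 encodes microsomal epoxide hydrolase, the membrane-bound enzyme that turns epoxides of drugs and pollutants into diols. It lies at chr1:180976210-181020904 on the minus strand of GRCm38 (ENSMUSG00000038776.13). In BLM 1 to BLM 4 it stood at 142, 136, 164 and 157 CPM, and in BLM+HBO 1 to BLM+HBO 3 at 278, 208 and 285 CPM. The groups did not overlap, and the lowest BLM+HBO mouse was BLM+HBO 2. The means were 150 ± 13.1 (SD, n = 4) and 257 ± 42.5 CPM (SD, n = 3). On the log2 scale BLM+HBO was higher by 0.78 ± 0.14 (SE). Leaving out 1 mouse gave between 0.69 and 0.91, the latter without BLM+HBO 2.

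The other 3 epoxide hydrolases were far lower and differed less clearly. Ephx2, the soluble hydrolase that acts on epoxides of fatty acids, stood at 6.77, 6.20, 7.25 and 4.00 CPM in the BLM mice and at 4.05, 5.94 and 2.48 CPM in the BLM+HBO mice. These ranges overlapped, with a log2 fold change of -0.55 ± 0.33 (SE). Leaving out 1 mouse gave between -0.28 and -0.90, the latter without BLM+HBO 2, the only fit in which Ephx2 was past both limits. Ephx3 had a log2 fold change of -0.56 ± 0.36 and Ephx4 one of 0.34 ± 0.32, with group means between 1.15 and 1.93 CPM.

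The carboxylesterases were the family with the most uniform direction. All 8 tested Ces genes had the higher mean in BLM+HBO, with a family median log2 fold change of 0.81, and 5 were past both limits. Over the 18 Ces genes with a read, most of them too scarce to be tested, the median was 0.46 with DESeq2 and 0.45 with edgeR and no filter. All 19 Ces genes lie on chromosome 8. The 8 Ces1 genes stand in a cluster of 359.5 kb (chr8:93020214-93379725), and 4 of the 5 tested there, Ces1d, Ces1e, Ces1f and Ces1g, were past both limits. They follow one another among the Ces1 genes of the chromosome, as the plot of the cluster shows. Ces1a, Ces1c and Ces1h had between 8 and 18 reads in all 7 mice together and were not tested.

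Ces1d encodes an esterase that also hydrolyses triglycerides, and it was the most abundant member of the cluster. It stood at 193, 306, 259 and 311 CPM in BLM 1 to BLM 4 and at 524, 345 and 521 CPM in BLM+HBO 1 to BLM+HBO 3. The groups did not overlap, but BLM+HBO 2 lay closer to BLM 2 and BLM 4 than to the other BLM+HBO mice. Its log2 fold change was 0.79 ± 0.20 (SE). Leaving out 1 mouse gave between 0.67 and 0.97, the latter without BLM+HBO 2.

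Ces1f, the carboxylesterase that the choice of the set named beside Ephx1, lies at chr8:93256236-93279747 on the minus strand (ENSMUSG00000031725.8). Its level was low, at 1.21, 1.97, 1.26 and 0.843 CPM in the BLM mice and 7.13, 3.11 and 5.51 CPM in the BLM+HBO mice. These values rest on 16 to 35 reads per BLM mouse and on 65 to 147 reads per BLM+HBO mouse. The groups did not overlap. The log2 fold change of 1.99 ± 0.37 (SE) was the largest among the tested members. Leaving out 1 mouse gave between 1.71 and 2.25, the latter without BLM+HBO 2.

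Ces1g, an esterase known for its part in lipid handling in liver, stood at 4.68, 3.83, 5.22 and 5.90 CPM in the BLM mice and at 26.4, 7.85 and 12.9 CPM in the BLM+HBO mice. BLM+HBO 1 was the highest and BLM+HBO 2 the lowest of the 3, still above every BLM mouse. The log2 fold change was 1.68 ± 0.36 (SE), and the lowest value on leaving out a mouse was 1.08. Ces1e had means of 3.58 ± 0.76 and 6.33 ± 1.89 CPM (SD, n = 4 and 3). Its groups overlapped, because BLM+HBO 2 (4.16 CPM) lay below BLM 2 (4.23) and BLM 3 (4.17).

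Among the 7 Ces2 genes, at chr8:104734003-105021178, only Ces2b was past both limits. It stood at 0.220, 1.41, 1.04 and 0.737 CPM in the BLM mice and at 3.30, 1.29 and 2.03 CPM in the BLM+HBO mice, so the groups overlapped. Ces2g, the most abundant Ces2 gene here, had means of 14.6 ± 2.35 and 15.6 ± 3.72 CPM (SD, n = 4 and 3) and a log2 fold change of 0.09 ± 0.20 (SE).

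**Figure D2:**
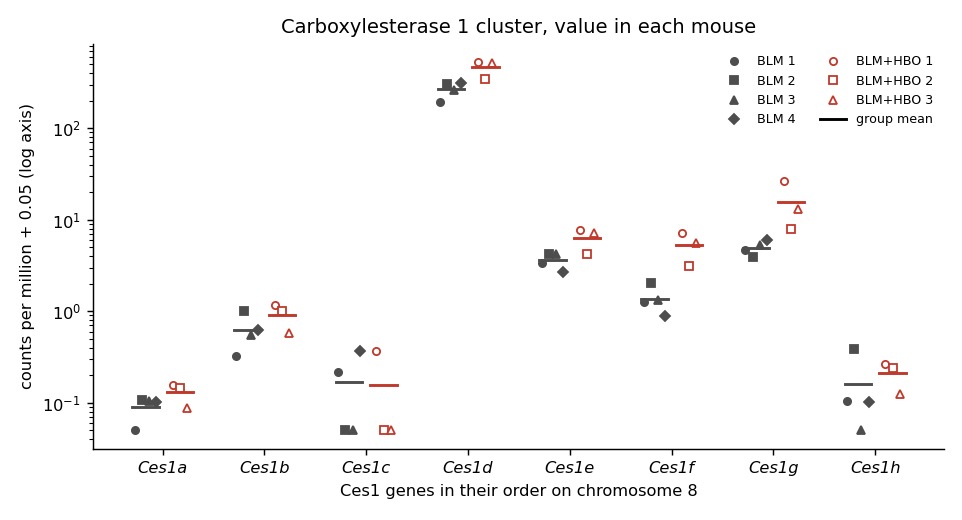
Level of the 8 carboxylesterase 1 genes in each mouse, in their order on chromosome 8, in CPM with 0.05 added and on a log axis. Ces1d stands far above its neighbours, and Ces1d, Ces1e, Ces1f and Ces1g have higher BLM+HBO means, whereas Ces1a, Ces1c and Ces1h lie near the level of single reads.

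Glutathione transferases held 4 of the 13 genes past both limits, and 16 of the 19 tested had the higher mean in BLM+HBO (family median log2 fold change 0.27). Gstm1 stood at 147, 196, 209 and 181 CPM in the BLM mice and at 338, 192 and 315 CPM in the BLM+HBO mice. BLM+HBO 2 lay within the BLM range, and the other BLM+HBO mice lay above it. For Gstm1 the log2 fold change was 0.62 ± 0.20 (SE). Leaving out 1 mouse gave between 0.47 and 0.83, the latter without BLM+HBO 2. It was past both limits in 10 of the 13 other fits, but not without BLM+HBO 1, BLM+HBO 3 or BLM 1. Gstm1 lies in a cluster of 7 Gstm genes (chr3:107895821-108044894), of which no other was past both limits. The median log2 fold change of the 6 tested Gstm genes was 0.23, and Gstm2 had 0.22 ± 0.12 (SE).

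Alpha-class transferases, which also reduce lipid peroxides, had the higher mean in BLM+HBO in all 3 tested genes. Gsta3 stood at 40.4, 54.7, 60.6 and 64.7 CPM in the BLM mice and at 124, 63.1 and 88.3 CPM in the BLM+HBO mice, with BLM+HBO 2 again inside the BLM range. Its log2 fold change was 0.73 ± 0.23 (SE), and leaving out 1 mouse gave between 0.46 and 0.94. Gsta3 was past both limits in 12 of the 13 other fits, but not without BLM+HBO 1. Gsta2 was scarce, at 0.369 to 1.27 CPM in the BLM mice and 1.34 to 4.31 CPM in the BLM+HBO mice, and the groups were separated by a small gap. Its log2 fold change was 1.67 ± 0.49 (SE). Gsta4, which detoxifies 4-hydroxynonenal, an aldehyde of lipid peroxidation, had a log2 fold change of 0.45 ± 0.22 and was not past the limit on fold change.

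Gstp2 had a log2 fold change of 1.62 ± 0.55 (SE) from means of 0.725 ± 0.42 and 2.25 ± 1.39 CPM (SD, n = 4 and 3). Because Gstp2 passed the filter only through the BLM+HBO mice, where it was higher, nothing is read from this difference. Its neighbour Gstp1, a far more abundant gene, had 84.6 ± 12.2 and 86.0 ± 9.12 CPM, with a log2 fold change of 0.02 ± 0.13 (SE). Of the stretches of 100 bases in Gstp2 transcripts, 46.9% occur in transcripts of another gene, mostly Gstp1. The share was 25.1% for Gstp1, 28.4% for Gsta2, mostly with Gsta1, and 5.86% for Gstm1. Reads that mapped to several places were left out of the counts, and the levels of Gstp1, Gstp2 and Gsta2 are uncertain to the extent that reads from such stretches did. Among the 65 tested members, 45 shared no such stretch with another gene and 9 shared over 5%. Gsto1, the omega-class transferase with high levels in these lungs, had means of 175 ± 31.5 and 160 ± 27.2 CPM and a log2 fold change of -0.13 ± 0.16 (SE).

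Among the aldehyde dehydrogenases, 11 of 18 tested genes had the higher mean in BLM+HBO, with a family median log2 fold change of 0.12. Aldh1a1, which makes retinoic acid from retinal and oxidises lipid aldehydes, stood at 491, 481, 590 and 425 CPM in the BLM mice and at 1014, 553 and 798 CPM in the BLM+HBO mice. BLM+HBO 2 lay below BLM 3, so the groups overlapped. For Aldh1a1 the log2 fold change was 0.67 ± 0.20 (SE). Leaving out 1 mouse gave between 0.44 and 0.86, the latter without BLM+HBO 2. It was past both limits in 11 of the 13 other fits, but not without BLM+HBO 1. Its neighbour and close relative Aldh1a7 stood at 37.6, 58.8, 51.7 and 39.6 CPM in the BLM mice and at 95.6, 52.0 and 106 CPM in the BLM+HBO mice. BLM+HBO 2 again lay inside the BLM range, and the log2 fold change was 0.85 ± 0.24 (SE). These genes lie side by side on opposite strands at chr19:20492715-20727562.

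The other 2 retinal dehydrogenases of the class had the lower mean in BLM+HBO. Aldh1a2 had a log2 fold change of -0.49 ± 0.29 and Aldh1a3 one of -0.96 ± 0.45 (SE), and neither was past both limits in edgeR. Aldh1l2, the mitochondrial enzyme of folate metabolism, was past both limits in the lower direction. It stood at 5.29, 4.96, 1.21 and 3.32 CPM in the BLM mice and at 0.852, 2.54 and 1.01 CPM in the BLM+HBO mice. BLM 3 lay among the BLM+HBO mice. The log2 fold change of -1.33 ± 0.55 (SE) was past both limits in 8 of the 13 other fits. Aldh2, the mitochondrial enzyme that clears acetaldehyde, had means of 551 ± 93.7 and 658 ± 160 CPM (SD, n = 4 and 3) and a log2 fold change of 0.26 ± 0.19 (SE).

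Flavin monooxygenases, glucuronosyltransferases and sulfotransferases had no gene past both limits in edgeR. Fmo2, the main flavin monooxygenase of lung, stood at 604, 535, 356 and 363 CPM in the BLM mice and at 585, 422 and 370 CPM in the BLM+HBO mice. The ranges coincided almost fully, and the log2 fold change was -0.02 ± 0.23 (SE). Fmo1 had 0.45 ± 0.19 on the same scale. Sult1a1, a sulfotransferase for small phenols, had means of 41.9 ± 10.2 and 42.8 ± 6.25 CPM (SD, n = 4 and 3) and a log2 fold change of 0.03 ± 0.19 (SE). Sult5a1 had a log2 fold change of 0.00 ± 0.17 and Sult1d1 one of -0.06 ± 0.36.

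Ugt genes were scarce, and 10 of the 22 had no read. Among those without a read, Ugt2a1 and Ugt2a2 share 98.8% and 94.5% of their exonic bases with other genes. Reads there were not counted, so their lack of reads says little. Ugt1a7c stood at 22.4, 9.58, 11.2 and 9.16 CPM in the BLM mice and at 7.83, 10.8 and 4.01 CPM in the BLM+HBO mice. BLM 1 was far above the rest. With a log2 fold change of -0.80 ± 0.40 (SE), the groups overlapped. The 9 Ugt1a genes share their last exons, and between 50.3% and 60.6% of the exonic bases of the 3 tested ones belong to other genes as well. Reads from those exons were left out, so that their counts rest on the part that is their own, while their TPM still divides by the full gene length.

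**Figure D3:**
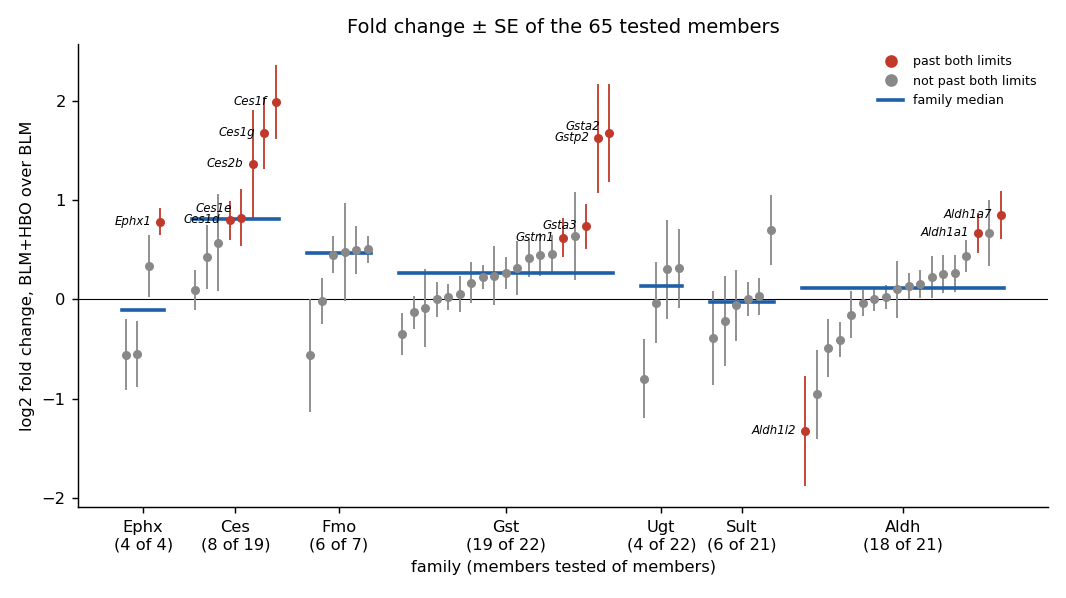
Log2 fold change of BLM+HBO over BLM for each of the 65 tested members with its standard error, sorted within each family, with red points past both limits and blue lines at the family medians. All 8 Ces points lie above 0, Fmo, Ugt and Sult have no red point, and Aldh1l2 is the only red point below 0.

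Read per family and per mouse, the summed level showed which families were separated. Summed Ephx stood at 244, 216, 258 and 263 TPM in BLM 1 to BLM 4 and at 438, 348 and 438 TPM in BLM+HBO 1 to BLM+HBO 3, without overlap and with a ratio of means of 1.67. Summed Ces stood at 288, 408, 348 and 445 TPM and at 742, 497 and 695 TPM, also without overlap, with a ratio of 1.73. Since Ephx1 and Ces1d make up most of these sums, the sums mainly repeat those genes.

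In the larger families the sums overlapped. Summed Gst ranged from 1325 to 1606 TPM in the BLM mice and from 1434 to 2066 TPM in the BLM+HBO mice (ratio 1.23), and summed Aldh from 1087 to 1218 and from 1171 to 1681 TPM (ratio 1.28). In both, BLM+HBO 2 lay within the BLM range and the other BLM+HBO mice above it. The ratio was 1.10 for Fmo, 1.02 for Sult and 0.697 for Ugt, each with overlapping groups. All members together summed to between 3561 and 3837 TPM in the BLM mice and to 5547, 3914 and 4973 TPM in the BLM+HBO mice.

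**Figure D4:**
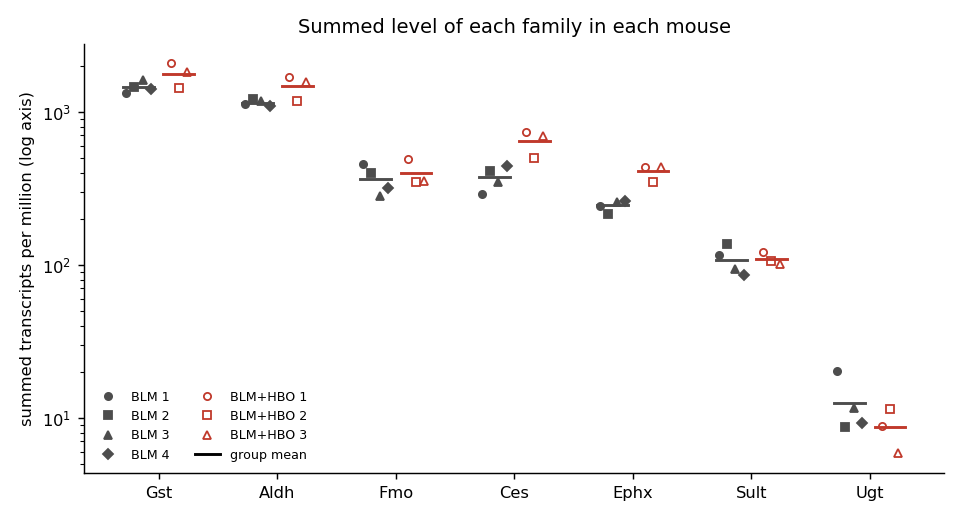
Summed level of each family in each mouse, in TPM on a log axis, with BLM mice as filled symbols, BLM+HBO mice as open symbols and bars at the group means. The groups are apart for Ces and Ephx, overlap for Gst and Aldh because of BLM+HBO 2, and share their range for Fmo, Sult and Ugt.

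The stretch before the transcription start is shown for 7 of the 12 members that were higher, to set the neighbours and relatives among them side by side. The sequences are the 250 bases before the start in RefSeq on GRCm38.p6, written 5′ to 3′ on the strand of the gene. They are chr1:181017570-181017819 (minus strand) for Ephx1, chr8:93229620-93229869 (minus strand) for Ces1e, chr8:93337210-93337459 (minus strand) for Ces1g, chr9:78347146-78347395 (minus strand) for Gsta2, chr1:21240335-21240584 (plus strand) for Gsta3, chr19:20601718-20601967 (plus strand) for Aldh1a1, at the more downstream of its starts, and chr19:20727557-20727806 (minus strand) for Aldh1a7. Capitals mark the core of the antioxidant response element, TGANNNNGC, and the core of the xenobiotic response element, GCGTG, on either strand.
Ephx1: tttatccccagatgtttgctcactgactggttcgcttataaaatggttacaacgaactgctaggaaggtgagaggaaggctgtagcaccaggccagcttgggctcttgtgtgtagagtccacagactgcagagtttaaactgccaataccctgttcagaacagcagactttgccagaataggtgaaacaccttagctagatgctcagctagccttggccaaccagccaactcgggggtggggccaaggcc
Ces1e: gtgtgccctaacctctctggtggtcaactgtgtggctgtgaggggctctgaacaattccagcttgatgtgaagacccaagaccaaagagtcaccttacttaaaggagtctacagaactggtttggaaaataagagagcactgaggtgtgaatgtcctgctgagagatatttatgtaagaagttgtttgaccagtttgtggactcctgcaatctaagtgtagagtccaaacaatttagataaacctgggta
Ces1g: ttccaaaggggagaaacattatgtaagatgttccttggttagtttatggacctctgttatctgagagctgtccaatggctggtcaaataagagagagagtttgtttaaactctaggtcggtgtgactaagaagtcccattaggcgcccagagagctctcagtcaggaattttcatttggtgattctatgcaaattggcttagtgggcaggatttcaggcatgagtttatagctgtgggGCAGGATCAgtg
Gsta2: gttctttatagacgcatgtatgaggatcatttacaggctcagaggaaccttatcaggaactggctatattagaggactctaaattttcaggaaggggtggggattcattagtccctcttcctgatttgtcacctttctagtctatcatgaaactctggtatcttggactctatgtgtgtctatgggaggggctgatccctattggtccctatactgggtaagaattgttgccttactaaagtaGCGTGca
Gsta3: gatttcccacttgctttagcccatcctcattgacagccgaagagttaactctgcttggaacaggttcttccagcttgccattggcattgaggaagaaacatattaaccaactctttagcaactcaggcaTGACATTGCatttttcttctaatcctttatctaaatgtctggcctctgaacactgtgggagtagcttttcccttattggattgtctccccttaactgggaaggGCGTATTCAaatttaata
Aldh1a1: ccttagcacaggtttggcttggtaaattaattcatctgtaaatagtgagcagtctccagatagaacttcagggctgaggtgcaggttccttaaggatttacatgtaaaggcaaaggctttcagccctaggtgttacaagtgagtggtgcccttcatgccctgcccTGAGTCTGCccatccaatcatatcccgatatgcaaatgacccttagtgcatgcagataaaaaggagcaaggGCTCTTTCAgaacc
Aldh1a7: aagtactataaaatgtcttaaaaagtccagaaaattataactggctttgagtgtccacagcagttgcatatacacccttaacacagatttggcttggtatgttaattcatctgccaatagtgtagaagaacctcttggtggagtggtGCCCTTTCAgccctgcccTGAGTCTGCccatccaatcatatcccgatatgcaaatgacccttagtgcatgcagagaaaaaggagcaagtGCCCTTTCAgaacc
The antioxidant core is known as the binding motif of NRF2 and the xenobiotic core as that of the aryl hydrocarbon receptor. The stretches of Ephx1 and Ces1e held neither motif. Gsta2 held a xenobiotic core, Ces1g 1 antioxidant core, Gsta3 and Aldh1a1 2 each and Aldh1a7 3. In a global alignment, 70.4% of the bases of Aldh1a1 and Aldh1a7 were identical, against 51.6% for Ces1e and Ces1g. Windows of 300 bases around the start were found for 95 of the 116 members. The antioxidant core occurred in 40.5% of the 111 member windows and in 41.3% of all 32851 windows, and the xenobiotic core in 20.7% and 32.4%. By family, the antioxidant core was in 57.1% of 28 Gst windows, 52.9% of 17 Aldh windows and 31.3% of 16 Ces windows. The other families had between 16.7% (Fmo) and 35% (Sult). The Gst windows came from 20 genes, and windows of the same gene can overlap. A match of such short motifs describes the letters only and marks no bound site.

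Genes that supply or continue these reactions were read from lists, as were the markers below. The lists were chosen with earlier results of these data known, and their counts past both limits stand beside 6.29% of all tested genes. Of 13 genes for cofactor supply, among them Gclc for glutathione, Ugdh for glucuronic acid and Papss1 for sulphate, none was past both limits, with a median log2 fold change of -0.07. Of the 7 tested export pumps for conjugates and drugs, of the 9 other hydrolases and of the 12 tested xenobiotic and redox regulators, none was past both limits either. The regulators had a median of -0.03. Nfe2l2, which encodes NRF2, had a log2 fold change of -0.03 ± 0.11 (SE), Keap1, its inhibitor, -0.04 ± 0.10, and Ahr, the aryl hydrocarbon receptor, 0.01 ± 0.20. These are transcript levels, and the activity of the encoded proteins was not measured. Nqo1, a widely used NRF2 target, had 0.38 ± 0.25 and Gclm, another, 0.00 ± 0.11.

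Among 14 reductases and other oxidases, 3 were past both limits, all higher. Cbr2, a carbonyl reductase of lung, stood at 383, 871, 804 and 519 CPM in the BLM mice and at 2188, 801 and 2270 CPM in the BLM+HBO mice. The aldehyde oxidases Aox1 and Aox3 had log2 fold changes of 0.60 ± 0.21 and 1.22 ± 0.36 (SE). For these 3 genes, BLM+HBO 2 lay within the BLM range, as it did for Gstm1, Gsta3 and Aldh1a7. Among 11 other conjugating enzymes, 3 were lower and 1 was higher past both limits. Hpgds, a prostaglandin D synthase of the glutathione transferase fold, stood at 24.7, 19.7, 20.2 and 15.4 CPM in the BLM mice and at 10.3, 13.1 and 10.5 CPM in the BLM+HBO mice, without overlap. The methyltransferases Nnmt and Tpmt had -0.75 ± 0.22 and -0.65 ± 0.26, whereas Inmt had 1.02 ± 0.36 on the log2 scale.

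Markers of the cells that the lobes hold moved beside these genes. In a bulk sample, fewer cells of a type and less RNA per cell cannot be told apart. The 6 club cell genes summed to between 5775 and 12550 CPM in the BLM mice and to 14210, 9747 and 19570 CPM in BLM+HBO 1 to BLM+HBO 3. Of them Scgb1a1 (log2 fold change 0.73 ± 0.32, SE) and Cyp2f2 (1.15 ± 0.36) were past both limits, whereas Scgb3a1 had -1.13 ± 0.51 and Bpifa1 -1.18 ± 0.64. The 7 alveolar type II genes summed to between 8833 and 16150 CPM and to 23990, 11200 and 27660 CPM. In both lists BLM+HBO 2 lay within the BLM range and the other BLM+HBO mice above it, as for Gstm1 and Gsta3. The same held for the summed ciliated, alveolar fibroblast, capillary endothelium and adipocyte genes. It was thus not particular to club and alveolar type II genes. The part of these cells in the result was not tested. Of the other lists, 1 of 7 ciliated, 2 of 7 alveolar fibroblast, 0 of 6 alveolar type I and 0 of 7 capillary endothelium genes were past both limits. Alveolar type I genes summed to between 3299 and 4868 CPM in the BLM mice and between 4255 and 4859 CPM in the BLM+HBO mice. Of 7 alveolar macrophage genes, 2 were higher and 3 lower.

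Tissue next to the lung was also represented. The 7 heart muscle genes summed to between 55.4 and 164 CPM in the BLM mice and to 603, 483 and 144 CPM in BLM+HBO 1 to BLM+HBO 3, and 6 of them were past both limits. The 8 adipocyte genes summed to between 3.97 and 8.96 CPM and between 8.33 and 16.3 CPM. Of them Adrb3 was past both limits, and Lep had no read in 6 of the 7 mice. Ces1d, which fat also makes, stood at 193 CPM or more in every mouse. Liver makes many members at high levels. Alb was at 0.0551 to 1.11 CPM in the BLM mice and 1.15 to 1.92 CPM in the BLM+HBO mice, without overlap, and Fgb had reads in 1 mouse only. The part of these tissues in the result was not tested.

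Of the 7 lists of companion genes, the 12 clock genes had the highest share past both limits. This share was 75% (9 of 12), with 7 higher and 2 lower, against 6.29% of all tested genes. Because the list was chosen with earlier results of these data known, nothing is read from this share. The list median log2 fold change was 0.90, over 9 genes with the higher mean in BLM+HBO and 3 with the lower. Dbp, a clock-driven transcription factor known from the control of drug metabolism in liver, stood at 25.7, 24.3, 15.5 and 5.58 CPM in the BLM mice and at 117, 50.1 and 39.2 CPM in the BLM+HBO mice. Arntl, a core activator of the clock, was lower with a log2 fold change of -0.96 ± 0.33 (SE), and Nr1d1, a repressor that it drives, was higher with 1.25 ± 0.26. The list summed to between 410 and 595 CPM in the BLM mice and to 1194, 839 and 713 CPM in BLM+HBO 1 to BLM+HBO 3. Among the 12 members that were higher, BLM+HBO 1 was the highest mouse for 10 and BLM+HBO 3 for the other 2, Ephx1 and Aldh1a7. For all 12, BLM+HBO 2 lay nearest to the BLM mean, whereas for the clock list BLM+HBO 3 was the lowest BLM+HBO mouse. The hour at which lungs were taken is not given in the sources used here, and its part in the result was not tested.

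**Figure D5:**
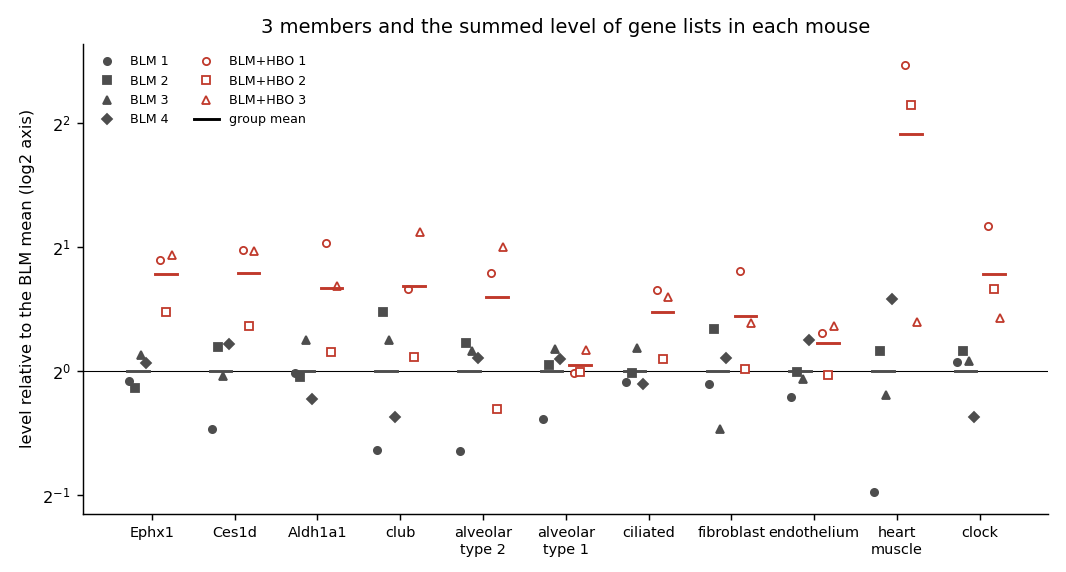
Level of Ephx1, Ces1d and Aldh1a1 and the summed level of 8 gene lists in each mouse, relative to the mean of the BLM mice on a log2 axis, with bars at the group means. BLM+HBO 2 (open square) is the lowest BLM+HBO mouse for the 3 enzymes and for club, alveolar type II, ciliated, fibroblast and endothelium genes. BLM+HBO 3 is the lowest for heart muscle and clock genes, and BLM+HBO 1 for alveolar type I genes.

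The members also varied within the BLM group. The median coefficient of variation over the 4 BLM mice was 20.2% for the tested members and 15.9% for all tested genes. Ephx1 was among the steadier genes, with 136 to 164 CPM. Fmo2 spread more widely, from 356 to 604 CPM.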

How the data were processed

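RNA from the right lung lobes of 7 mice was sequenced. The authors trimmed reads, aligned them with HISAT2 (GRCm38) and summarised them with featureCounts into the deposited counts, one value for each gene, at default settings that ignore strand and drop reads with several positions or several genes. The release of the gene annotation is not given in the sources used here. Symbols came from GENCODE vM21 (55141 of 55401 genes).

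Low genes were removed by filterByExpr with a count of at least 10 and a total of at least 15. The rest were scaled by TMM and tested over all genes with the quasi-likelihood test of edgeR 4.0.16 in R 4.3.3. DESeq2 1.42.0 and limma 3.58.1 were alternatives, beside RLE factors, other filters and limits, a replicate block and leaving out each mouse. The fits were tested on simulated data. CPM and TPM were computed from the counts and the deposited gene lengths. Levels rest on 18157161 to 26365969 reads per mouse. P-values set the difference between the groups against the spread between these mice.

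Members and lists were chosen with earlier results of these data known. The genes named were Ephx1 and Ces1f, members past both limits, the 3 members with the highest mean TPM in each family, members named for their level or detection, companion genes past both limits, and regulators and markers of the lists. Some others, such as Ephx3, Gsta4 and Aldh1a2, were named after their values were seen. Protein sequences were not used here, and transcripts of GENCODE vM21 were compared in stretches of 100 bases instead. Promoters were aligned with Biopython 1.88. A result for 1 gene is not reported here.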

Additional observations from a re-analysis of the deposited data

How the results depend on the processing

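The number of members past both limits was 13. It was 16 of 100 with DESeq2 (4.24% of all genes), where all 13 recurred and Aldh3a1 (higher), Aldh1a3 and Ugt1a7c (lower) were added, and 17 of 100 without a filter (5.9% of all genes). It was 13 with limma (6.68%), RLE factors (6.24%) or a filter of 1 CPM in 3 mice (6.12%). It fell to 6 with a fold change above 2 (2.91%) and to 8 with P below 0.01 (1.83%), which are stricter by construction. Leaving out each mouse gave between 8 (without BLM+HBO 1, against 3.7% of all genes) and 23 (without BLM+HBO 2, against 10.7% of all genes). The cause was not tested. Without BLM+HBO 2, 7 members had an adjusted P below 0.05 in edgeR, and with all mice but no filter there were also 7. The main fit gave 0. The share of all genes at that limit is not given here for either fit, so nothing is read from these counts. Of 376 other values of the named members' log2 fold changes, 374 moved by less than 1 SD between replicates. In fits that leave out a mouse, a group mean can hardly move by 1 such SD, so the 374 says little there. Of the 376 values, 26 changed sign, all in members not past the limits. Of 91 values of the family medians, 10 changed sign, in Ephx, Ugt and Sult. The Ces median of 0.81 was 0.46 with DESeq2 and 0.45 without a filter, which both take in scarce genes. RLE factors moved the median of all genes by -0.0038 on the log2 scale.

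The labels give both groups replicate numbers 1 to 3. Deviations of same-numbered mice correlated by -0.0080, -0.066 and 0.16, and 1 of the 3 pairs correlated best with its own number. So few pairs cannot tell whether the numbers pair the mice, and the main fit took them as unpaired. With the number as a replicate block, 11 members were past both limits, 9 higher and 2 lower, against 7.2% of all genes. Ces2b, Gsta2 and Gstp2 had under 10 reads in 1 mouse each, and differences in such scarce genes are uncertain.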
